A study of Drosophila melanogaster with 2 samples.

Results

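Of the 3587 thresholded peaks of the transcription factor MTF-1, 1268 lay at one-directional protein-coding promoters (35.3%; 95% exact interval 33.8 to 36.9). A peak was a member when at least 1 annotated protein-coding transcript start lay within 500 bp of its summit and all such starts were on the same strand. A further 427 peaks had protein-coding starts on both strands within that distance and 1892 had none. Binding was mapped by chromatin immunoprecipitation and sequencing (ChIP-seq) in Drosophila melanogaster embryos, taken whole, of the strain MTF-1-GFP, a transgenic line that stably carries MTF-1 fused to GFP at its C terminus. Embryos were 0 to 24 h old, males and females were pooled, and 2 biological replicates (numbers 2 and 4) made up the single group. The labels name MTF-1 as the antibody target, give no promoter for the transgene and name no metal treatment and no line without the tag. The free-text descriptions of both samples speak of input controls, whereas their titles, assay and antibody describe immunoprecipitates, and they were treated as such.

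MTF-1 is a zinc-finger protein that senses metals and binds the metal response element (MRE), whose core reads TGCACNC or TGCGCNC. In flies and mammals it is known for switching on metallothionein genes, whose products bind metal ions, and genes for moving and storing metals. A one-directional promoter starts protein-coding transcripts on 1 strand, so that a summit beside it can be placed upstream or downstream of the start, which a divergent promoter does not allow. Starts were annotated ones and were not measured in these embryos. The same 500 bp rule was applied to 14860 background regions, which are weak regions of the authors' pooled list that overlapped no thresholded peak, and 2116 of them met it (14.2%; 13.7 to 14.8).

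The sequences below show some of the strongest members and members at metal genes that carried an MRE core near the summit. They are printed on the gene's strand of the dm6 assembly, with each core in capitals in either orientation, so that GTGTGCA is the reverse complement of TGCACAC. Where the summit lay in an annotated 5′ UTR, 29 bases around the core nearest to it are shown.
Coq2 chr3R:8316878-8316998 (- strand): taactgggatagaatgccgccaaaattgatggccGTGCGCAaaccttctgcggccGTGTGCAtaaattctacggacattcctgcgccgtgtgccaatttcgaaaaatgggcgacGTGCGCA
Ggt-1 chrX:18512370-18512398 (- strand): ggtagtgggtcGTGTGCAgggaatacaag
Hsp83 chr3L:3193055-3193083 (+ strand): cccgcacaggtTGCGCACttttcgaccgt
Fer2LCH chr3R:30388744-30388772 (+ strand): acacatgcccaTGCACGCtctccaaaacc
Mlp84B chr3R:7116717-7116799 (- strand): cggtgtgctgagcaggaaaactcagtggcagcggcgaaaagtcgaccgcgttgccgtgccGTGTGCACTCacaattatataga
Mlp84B chr3R:7117740-7117860 (- strand): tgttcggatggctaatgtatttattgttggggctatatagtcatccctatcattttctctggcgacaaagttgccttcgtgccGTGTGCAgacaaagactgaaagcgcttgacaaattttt
Keap1 chr3R:17078185-17078305 (- strand): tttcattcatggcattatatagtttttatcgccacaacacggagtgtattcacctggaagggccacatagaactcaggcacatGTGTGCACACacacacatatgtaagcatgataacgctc
MtnC chr3R:20360153-20360273 (+ strand): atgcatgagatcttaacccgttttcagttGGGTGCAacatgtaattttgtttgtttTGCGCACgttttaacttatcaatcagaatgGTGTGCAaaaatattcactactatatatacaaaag
ZnT35C chr2L:15247762-15247882 (- strand): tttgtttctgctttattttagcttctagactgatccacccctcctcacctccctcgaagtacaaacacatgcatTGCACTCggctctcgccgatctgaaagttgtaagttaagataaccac
The Coq2 and MtnC stretches held 3 cores each. The stretch of the Mlp84B peak of rank 42 held 2 overlapping cores on opposite strands, as did that of Keap1.

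Other strong members had no core within 50 bp of the summit. The next 4 stretches, from peaks of rank 3, 6, 32 and 54, show this and have no capitals.
Ugalt chrX:2703853-2703952 (- strand): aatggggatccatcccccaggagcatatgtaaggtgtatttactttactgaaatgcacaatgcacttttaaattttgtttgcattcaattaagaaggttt
CG14100 chr3L:19590562-19590682 (- strand): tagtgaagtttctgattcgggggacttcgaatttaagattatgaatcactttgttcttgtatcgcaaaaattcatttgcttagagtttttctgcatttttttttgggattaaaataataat
CG18549 chr3R:12449118-12449238 (+ strand): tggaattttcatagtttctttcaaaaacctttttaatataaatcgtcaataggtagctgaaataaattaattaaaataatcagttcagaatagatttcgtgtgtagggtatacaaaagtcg
RluA-1 chr2L:10474481-10474601 (- strand): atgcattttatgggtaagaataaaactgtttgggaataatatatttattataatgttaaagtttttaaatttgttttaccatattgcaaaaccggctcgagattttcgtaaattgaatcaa
These stretches were rich in A and T, with 35.0% G and C at Ugalt, 28.9% at CG14100, 26.4% at CG18549 and 24.8% at RluA-1. The 4 do not stand for all strong members without a core. Among the 20 strongest members, those without a core ran from 18.8% at Fkbp14 to 54.5% at yps within 50 bp of the summit. The mean over all members was 42.9%.

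Member signal, the peak caller's value for each region as deposited, ran from 104.02 to 1967 with quartiles at 123, 153 and 225. Its scale is not stated, so it was used only within 1 list. Members held 40 of the 100 strongest peaks of the list (40.0%; 30.3 to 50.3), an interval that includes their 35.3% of the whole list. The strongest member lay at Ugalt, which encodes a transporter of UDP-galactose into the Golgi. Its signal was 1967, 12.8 times the member median, its summit lay 30 bp upstream of the start, and it ranked 5 in replicate 2 and 3 in replicate 4. The peak of rank 5 lay 385 bp upstream of Coq2, a gene of coenzyme Q synthesis, with a signal of 1874 and ranks of 3 in replicate 2 and 6 in replicate 4. The start of Ctr1B, a copper importer gene on the other strand, lay 684 bp from that summit, outside the 500 bp limit, and a non-coding start on that strand lay within it. The peak of rank 6 lay 88 bp upstream of CG14100, and that of rank 7 lay 199 bp upstream of px (plexus), which acts in wing vein patterning.

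Ggt-1 encodes a gamma-glutamyl transpeptidase, an enzyme of glutathione breakdown. Its peak ranked 8, with a signal of 1367 and a summit 80 bp upstream of the start, and it ranked 10 in replicate 2 and 13 in replicate 4. Its TGCACAC lay 33 bp from the summit and 50 to 44 bp before the start. Hsp83, the fly Hsp90 gene, had the peak of rank 22 (signal 1152), 101 bp upstream, at rank 16 in replicate 2 and rank 32 in replicate 4. Its core, TGCGCAC, lay 46 bp from the summit. Fer2LCH encodes the light chain subunit of secreted ferritin, the iron storage protein. It had members at rank 36 (signal 953), 28 bp upstream, and at rank 123 (signal 572), 194 bp downstream. The first ranked 64 in replicate 2 and 47 in replicate 4, while the second ranked 1625 in replicate 2 and 154 in replicate 4. Both lay in the neighbourhood of the divergent Fer1HCH, whose nearest start was 624 bp from the first summit.

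Of the 10 strongest members with a core, 4 lay at 3 genes of muscle proteins, a grouping made after the values were seen. The share of muscle protein genes among all members, or among all members with a core, was not counted. Mlp60A and Mlp84B encode muscle LIM proteins and bt encodes projectin, a giant protein of the sarcomere. The Mlp60A peak (rank 40, signal 919) had its summit 45 bp upstream and TGCACAC 6 bp from it. Mlp84B had members at rank 42 (signal 893), 13 bp upstream of 1 start, and at rank 71 (signal 694), 58 bp upstream of another start. The bt peak ranked 89 (signal 642), 71 bp upstream of the start. Each of the 4 carried TGCACAC within 50 bp, and these TGCACAC copies lay between 45 and 17 bp before the start. These peaks ranked 21, 24, 35 and 71 in replicate 2, and 63, 61, 146 and 123 in replicate 4. The remaining members of the 10 were moody (rank 124), which encodes a receptor of the glia that form the blood-brain barrier, and bgcn (rank 125), which acts in germline differentiation.

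The rest of the 20 strongest members had no core within 50 bp of the summit, and their genes served several cell functions. Protein glycosylation and folding were represented by Alg3, a mannosyltransferase gene (rank 14, signal 1291, 83 bp upstream), and Fkbp14, which encodes a prolyl isomerase (rank 33, 132 bp upstream). RNA metabolism was represented by PNPase, a polynucleotide phosphorylase gene (rank 30, 80 bp upstream), by DCP2, which encodes the mRNA decapping enzyme (rank 46), by yps, a Y-box protein gene (rank 51, 25 bp upstream), and by RluA-1 (rank 54, 182 bp upstream). The others lay at CG1888 (rank 12), the mitochondrial ribosomal protein gene mRpL41 (rank 27), CG18549 (rank 32), CG1635 (rank 47) and the Toll-family receptor gene Toll-7 (rank 49). All of these peaks were among the strongest 139 regions of both replicates. Summits lay upstream of the start in every member among the 20 strongest other than DCP2, where it lay 188 bp downstream in an intron.

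Summits of members lay more often upstream of the nearest start than those of background regions under the same rule. Upstream summits made up 818 of 1268 members (64.5%; 61.8 to 67.1) and 1019 of 2116 background regions (48.2%; 46.0 to 50.3), a difference of 16.4 percentage points (two-sided Fisher's exact p = 2.1e-20). The median position was -45 bp in members and 10 bp in background regions, where negative values are upstream. Within 50 bp of the start lay 439 members (34.6%) against 19.9% of background regions, and between 51 and 200 bp upstream lay 27.5% against 17.2%. More than 200 bp upstream the shares were 20.9% and 21.2%. More than 50 bp downstream lay 17.0% of members and 41.7% of background regions, as the plot of summit positions shows. The p-value describes regions of these lists and is not one over biological replicates.

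**Figure D1:**
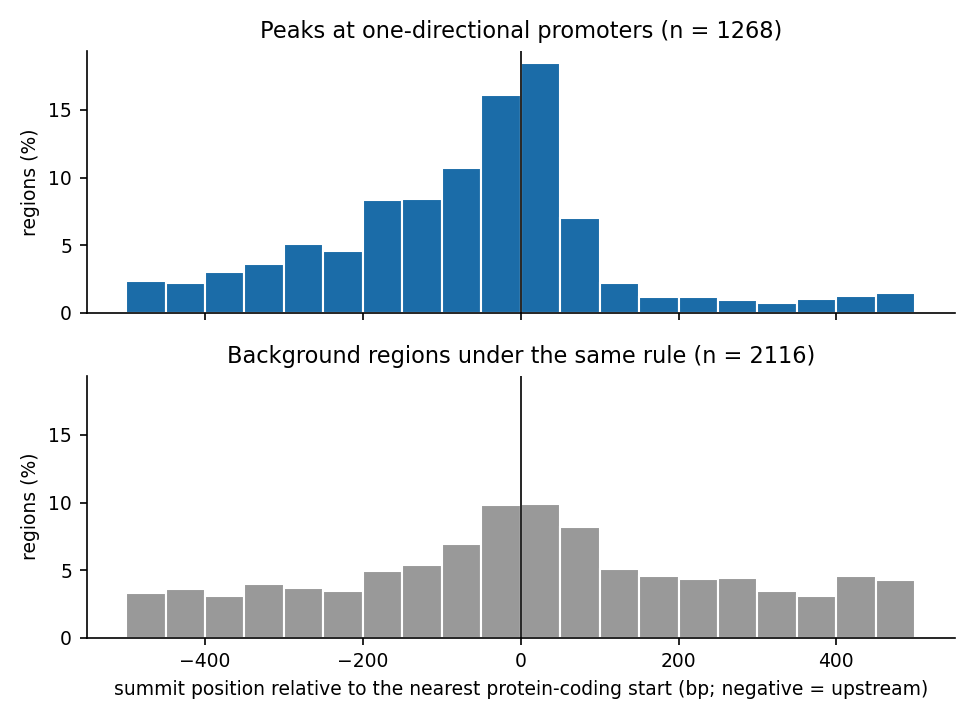
Summit position relative to the nearest protein-coding start, in 50 bp steps, as a percentage of the 1268 members (top) and of the 2116 background regions (bottom). Members gather at and before the start and are few beyond 100 bp downstream, where background regions continue.

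By annotation, 449 member summits (35.4%) lay outside protein-coding genes, 436 (34.4%) in a 5′ UTR, 366 (28.9%) in an intron, 10 in a 3′ UTR and 7 in a coding exon. Upstream of the nearest start did not mean outside a gene, because 369 of the 818 upstream summits lay inside a longer transcript of the gene or in another gene. Starts of 1 gene were within 500 bp of 1233 members. An opposite-strand start of a non-coding gene lay within 500 bp of 57 members, and an opposite-strand protein-coding start lay beyond 500 bp and within 1000 bp in 183, so the promoters were one-directional only in the sense of the rule. The members just inside the limit were those at ush (-499 bp, signal 134), CG43066 (-497 bp, signal 183) and CG17544 (-496 bp, signal 130). The peaks just outside it were those at CG13252 (501 bp, signal 127), dac (-502 bp, signal 120) and CG17896 (-505 bp, signal 356).

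The upstream share was higher among stronger members. Members were split into 4 equal bins by signal. From the weakest bin to the strongest the upstream share was 57.1%, 58.4%, 65.0% and 77.6% (72.6 to 82.1 in the strongest), and the median position moved over -20, -19, -54 and -123 bp. Of the 40 members among the 100 strongest peaks, 36 were upstream. The mean GC content within 50 bp of the summit was 45.0%, 45.4%, 42.3% and 39.0% over the same bins. The replicates differed in this. With summits and signal of replicate 4 the upstream share was 51.1%, 63.7%, 72.6% and 85.4%, and GC content 46.9%, 43.5%, 39.8% and 35.3%. With those of replicate 2 the upstream share was 61.2%, 58.1%, 53.8% and 68.8%, and GC content stayed between 44.1% and 46.3%. In replicate 2 the share was thus highest in the strongest bin but did not climb over the others. These shares were not tested, and the part of GC content and of the single replicate in them was not tested.

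**Figure D2:**
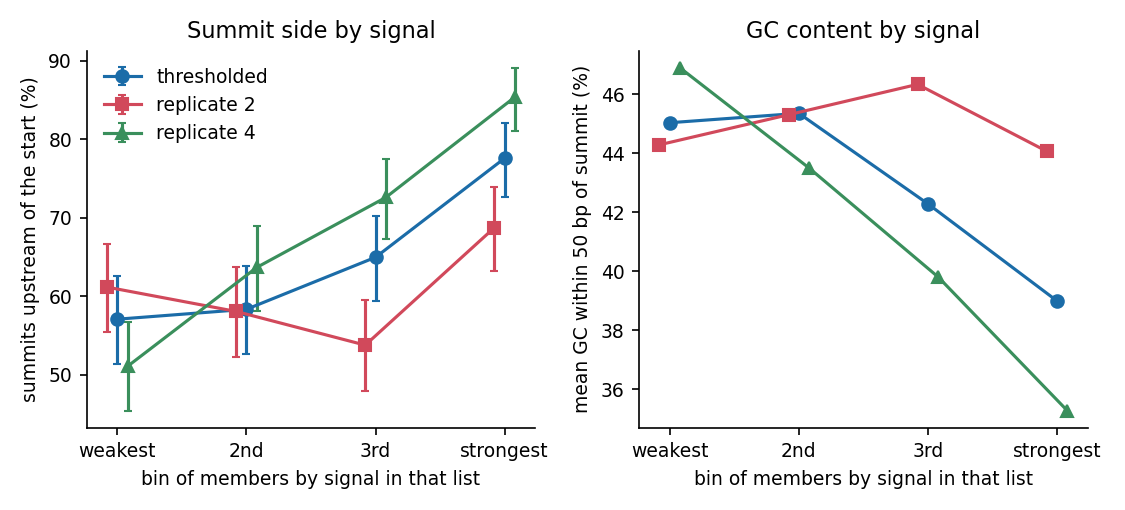
Share of member summits upstream of the start with 95% exact intervals (left) and mean GC content within 50 bp of the summit (right), by bin of signal in the thresholded list, replicate 2 and replicate 4. Replicate 4 climbs from 51.1% to 85.4% upstream over its bins, while replicate 2 is highest in its strongest bin at 68.8%.

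The strongest downstream summits were those at DCP2, RpS4, RpL8, ph-p and RpL24. RpS4, RpL8 and RpL24 encode ribosomal proteins, and their summits lay 2, 7 and 5 bp downstream, practically on the start. The RpS4 peak (rank 61, signal 756) ranked 18 in replicate 2 and 327 in replicate 4, and the RpL8 peak (rank 81) ranked 30 in replicate 2 and 273 in replicate 4. At ph-p, a Polycomb group gene, the summit (rank 88, signal 644) lay 481 bp downstream in a 5′ UTR and ranked 1848 in replicate 2 and 51 in replicate 4. The order of the replicates at ph-p was thus the opposite of that at the ribosomal protein genes.

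A region overlapping a member was listed in replicate 2 for 1214 members and in replicate 4 for 1258, and in both for 1205 (95.03%; 93.7 to 96.2). Peaks with no protein-coding start within 500 bp had a region in both replicates in 95.98%, a difference of -0.95 percentage points (two-sided Fisher's exact p = 0.216), and the thresholding had used both replicates. Among the 3587 strongest regions of each replicate were 945 members in replicate 2 and 1001 in replicate 4. Where both replicates had a region, their summits lay within 50 bp of each other in 769 of 1205 members, with a median gap of 33 bp.

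Members at the start ranked higher in replicate 2, and members farther upstream ranked higher in replicate 4, by counts that were not tested. Of members found in both, 69.9% of those within 50 bp of the start had the better rank in replicate 2, with a median rank of 1549.5 there and 2709.5 in replicate 4. The share was 56.3% more than 50 bp downstream, 38.4% at 51 to 200 bp upstream and 37.4% more than 200 bp upstream, and 52.03% (627 of 1205) over all members. GC content followed the same order, at 48.7%, 44.0%, 39.8% and 36.6%. Whether depth, fragment length or base composition of the libraries moved with this was not tested, since reads were not analysed here.

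**Figure D3:**
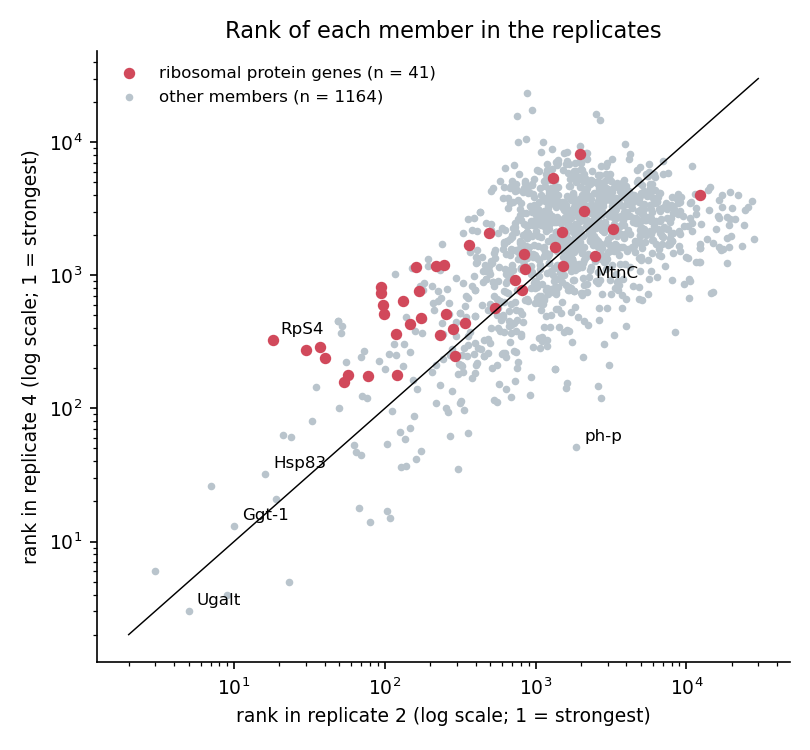
Rank of each of the 1205 members found in both replicates, in replicate 2 (x axis, log scale) and replicate 4 (y axis, log scale), with members at cytosolic ribosomal protein genes in red and a line of equal ranks. Of the 41 ribosomal protein members 35 lie above the line, ranking higher in replicate 2, while ph-p lies far below it.

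The MRE core occurred within 50 bp of 173 member summits (13.6%; 11.8 to 15.7) and of 194 background summits at one-directional promoters (9.17%; 7.97 to 10.5), a difference of 4.48 percentage points (two-sided Fisher's exact p = 6.22e-05). The call rested on replicate 2. Among the strongest regions of replicate 4 alone the shares were 11.2% and 9.56%, a difference of 1.67 points (Fisher's exact p = 0.134). Peaks with starts on both strands had a core in 9.84% and peaks with none in 10.3%, given as a description. The core share of members was 17.8% (14.3 to 21.7) within 50 bp of the start against 9.72% of background regions there, and 14.9% against 9.86% more than 50 bp downstream. At 51 to 200 bp upstream, where member summits were more frequent than background summits, it was 10.6% against 11.5%, and farther upstream 9.81% against 5.36%.

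No difference in signal was detected between members with a core and the others. The median was 152 in the 173 members with a core and 153 in the 1095 without, a log2 difference of -0.0099 (permutation test, two-sided, p = 0.895). By bin of signal, from the weakest, the core share was 13.6%, 14.2%, 11.99% and 14.8%. With summits and signal of replicate 2 it was 13.2%, 12.2%, 12.9% and 19.7%, and with those of replicate 4 it was 13.02%, 11.8%, 11.1% and 10.5%, shares that were not tested. Of the 173, 21 members had at least 2 cores. The median log2 difference in signal of members was -0.084 from peaks with starts on both strands (medians of 153 and 162, permutation p = 0.0548) and 0.018 from peaks with no start (153 and 151, p = 0.573). The first of these passed with limits of 250 bp (-0.18, p = 0.00184) and 1000 bp (-0.086, p = 0.0267), and the second in the regions of replicate 2 alone (0.11, p = 2e-05), all by permutation. The 2 strongest peaks of the whole list are not members.

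Sequence was then compared between promoters rather than summits, so that both groups were aligned on the start. The window ran from 250 bp before to 50 bp after the outermost start of a gene. It was taken for 834 member promoters and for 8620 other one-directional promoters, whose genes had no thresholded peak within 1000 bp of any start. Of 18 motifs searched on both strands, 8 were more frequent in members (44.4%) and 2 less frequent (11.1%) at an adjusted p under 0.05 (Fisher's exact test, two-sided, Benjamini-Hochberg over the 18). The other promoters include genes that may be silent in embryos, and activity was not measured. Against the 2705 other promoters with a candidate region of the pooled list within 500 bp, a comparison chosen after seeing the data, 4 of the motifs passed.

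The MRE core was present in 26.7% of member promoters (23.8 to 29.9) and 17.9% of others (exact adjusted p = 1.43e-08), and in 21.96% of those with a candidate region (adjusted p = 0.0287). Its form TGCACAC, which is part of the core's count, was present in 6.00% against 3.71% (exact adjusted p = 0.00444), but not detectably above promoters with a candidate region (4.36%, adjusted p = 0.159). GAGAG, the site of the GAGA factor that helps keep promoters open, was present in 43.5% against 30.8% (exact adjusted p = 3.61e-12) and 38.2% with a candidate region (adjusted p = 0.0298). The site GGTCACAC of M1BP, a pausing factor of housekeeping promoters, had the largest ratio of the 18, with 9.47% against 4.34% (exact adjusted p = 1.43e-08) and 6.17% with a candidate region (adjusted p = 0.0159). The initiator, searched as TCAGTC and its forms with T in place of the G or of the last C, was less frequent, with 58.6% against 66.5% (exact adjusted p = 3.38e-05) and 65.5% with a candidate region (adjusted p = 0.00699).

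The other 5 calls were lost against promoters with a candidate region. They were the DNA replication-related element (DRE, TATCGATA; 9.59% against 5.92%), the E-box CAGCTG (18.7% against 14.6%), CATCNCTA, known as core promoter motif 7 (7.07% against 3.94%), core promoter motif 6 (2.40% against 1.33%) and GCCAT, the core of the Polycomb recruiter Pho, which was less frequent (38.1% against 42.3%). Of these, only the E-box kept its call in the other alternatives run. Pho lost it with a limit of 250 bp (exact adjusted p = 0.137), in peaks at or above the median signal (0.84), without replicate 2 (0.10) and without replicate 4 (0.189). Core promoter motif 6 lost it with a limit of 1000 bp (exact adjusted p = 0.173), at or above the median signal (0.0951), without replicate 2 (0.0974), without replicate 4 (0.713) and in a window from 500 bp before the start (0.18). DRE lost it at 1000 bp (exact adjusted p = 0.0772) and at or above the median signal (0.0786), and core promoter motif 7 at 1000 bp (0.0772) and in a window of 100 bp each side of the start (0.057). TGCACAC lost it in the window from 500 bp before the start (exact adjusted p = 0.215).

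The 8 motifs that did not pass were the TATA box (TATAAA), the pyrimidine initiator (CTTTTC), the GATA factor site (TGATAA), the site of Zelda (CAGGTAG), that of Su(Hw) (GCATACTT), that of AP-1 (TGANTCA), the antioxidant response element (TGACNNNGC) and the heat shock element. TATAAA was present in 42.4% of member promoters and 45.8% of others (exact adjusted p = 0.112). In a window of 100 bp each side of the start it was present in 18.5% against 31.1% (exact adjusted p = 2.9e-14). It also passed, again less frequent in members, with a limit of 1000 bp (38.8% against 45.3%, exact adjusted p = 0.00145) and without replicate 4 (39.5% against 46.0%, exact adjusted p = 0.0015). In the 100 bp window TGATAA was less frequent in members (9.95% against 14.4%, exact adjusted p = 0.000777) and CTTTTC more frequent (23.4% against 19.1%, exact adjusted p = 0.00782). TGATAA also passed without replicate 4 (19.6% against 23.5%, exact adjusted p = 0.0282), and the Zelda site in peaks at or above the median signal (0.24% against 1.79%, exact adjusted p = 0.0355), less frequent in members in both.

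**Figure D4:**
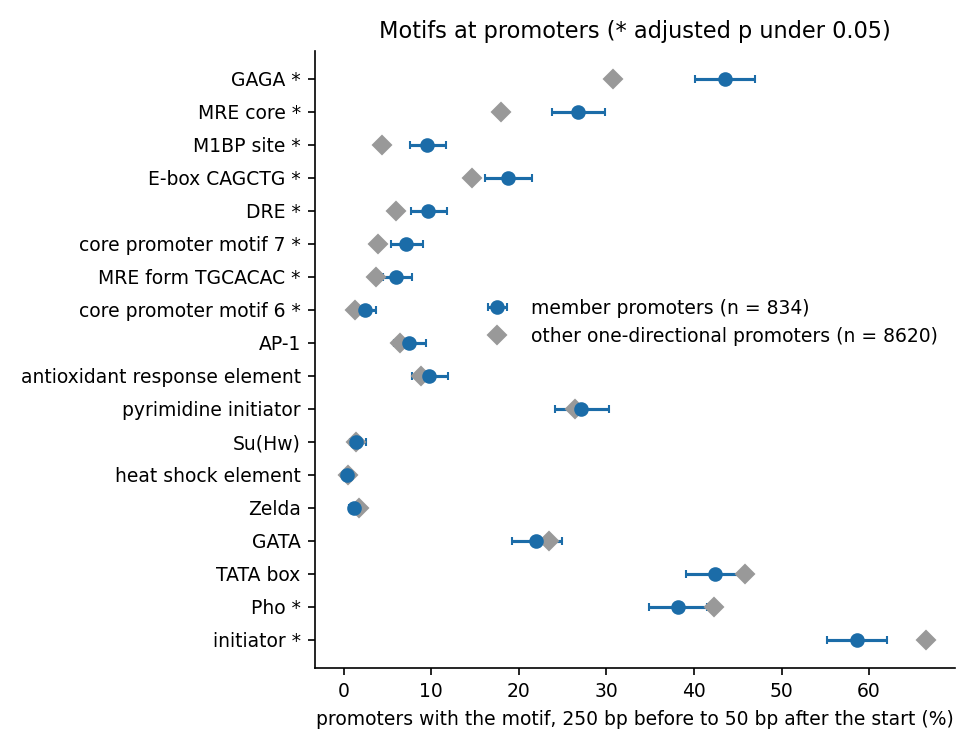
Share of promoters with each motif in member promoters (circles, 95% exact intervals, n = 834) and other one-directional promoters (diamonds, n = 8620), ordered by the difference. GAGA, at 43.5% against 30.8%, has the widest gap upwards and the initiator, at 58.6% against 66.5%, the widest downwards.

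Genes of translation were among the members with DRE or M1BP sites near the summit. Of the 29 members with DRE within 50 bp of the summit, 7 lay at ribosomal protein or translation factor genes (24.1%; 10.3 to 43.5). The same held for 6 of the 21 members with an M1BP site (28.6%; 11.3 to 52.2). Among all 1268 members, 43 peaks lay at cytosolic ribosomal protein genes and 11 at translation factor genes, and the shares were not tested. The stretches below show DRE or M1BP sites at eEF1gamma, which encodes a translation elongation factor subunit, and at 4 ribosomal protein genes. TATCGATA or GGTCACAC is in capitals.
eEF1gamma chr3R:29220098-29220171 (+ strand): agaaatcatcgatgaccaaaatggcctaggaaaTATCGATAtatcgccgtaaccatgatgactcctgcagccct
RpL10Ab chr3L:11822749-11822850 (+ strand): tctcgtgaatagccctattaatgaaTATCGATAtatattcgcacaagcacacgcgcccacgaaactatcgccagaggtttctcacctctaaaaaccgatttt
RpL27 chr3R:25685052-25685140 (- strand): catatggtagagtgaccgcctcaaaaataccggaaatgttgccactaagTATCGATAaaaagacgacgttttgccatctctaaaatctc
RpL30 chr2L:19009261-19009290 (- strand): atccccccgtcGGTCACACcaacacaaacg
RpL27A chr2L:4458330-4458359 (- strand): cgccgccgggcGGTCACACtgctacaaccg
Without the cytosolic ribosomal protein genes, an alternative chosen after seeing the data, 10 of the 18 motifs passed, DRE with an adjusted p of 0.00914 and the M1BP site with 1.25e-07.

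Genes were counted next. A start within 500 bp of a member belonged to 1164 of 13945 protein-coding genes (8.35%), and to 1024 of the 10067 genes with no opposite-strand protein-coding start within 500 bp of any of their starts (10.2%). Nearest genes numbered 1133, of which 118 were nearest to at least 2 members and 3 to 4 members each (Ptpmeg2, RapGAP1 and Rtnl1). Gene lists were set beside the 8.35% as a description, with no test, since the lists were chosen with earlier results known. As the plot of gene lists shows, cytosolic ribosomal protein genes stood highest.

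**Figure D5:**
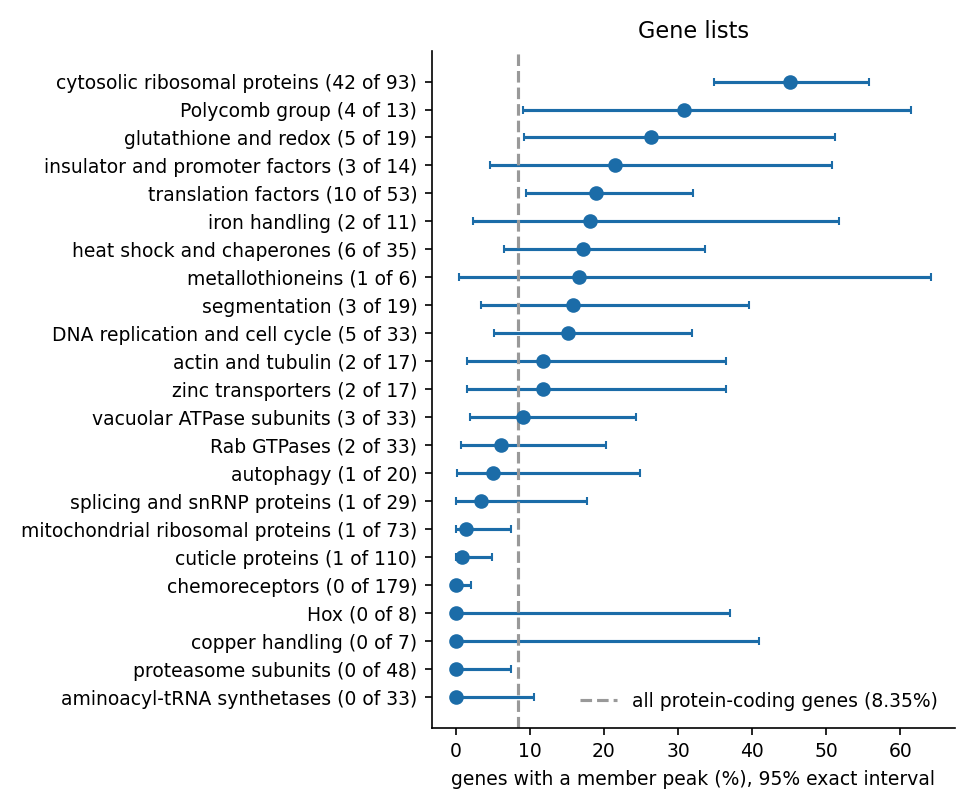
Share of the genes of 23 lists with a member peak, with 95% exact intervals that cover the counting of genes only, and the share of all protein-coding genes as a dashed line at 8.35%. Cytosolic ribosomal protein genes lie at 45.2%, while chemoreceptor, proteasome, aminoacyl-tRNA synthetase, copper and Hox genes lie at 0%. The intervals of the synthetase, copper and Hox lists reach past the dashed line. Peaks with starts on both strands are not counted.

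Of 93 genes matched by symbol as cytosolic ribosomal proteins, like-named paralogs included, 42 had a member (45.2%), and of the 56 among them with no opposite-strand start nearby, 40 had one (71.4%, beside 10.2% of all such genes). Their 43 peaks had a median signal of 358, against 153 for all members. Summits lay within 50 bp of the start in 39 of the 43, with a median position of -4 bp. The strongest were at RpS4 (rank 61), RpS28b (rank 76, signal 677, 32 bp upstream) and RpL8 (rank 81). RpS28b ranked 40 in replicate 2 and 241 in replicate 4, and 35 of the 41 such members found in both replicates ranked higher in replicate 2, with median ranks of 248 in replicate 2 and 735 in replicate 4. An MRE core was near 5 of the 43 summits, beside 173 of all 1268 members (13.6%) and 78 of the 439 within 50 bp of the start (17.8%). These counts were not tested against each other. Some ribosomal protein genes have near-identical copies elsewhere in the genome, and how reads of several matches were placed is not given in the sources used here.

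Translation factors had members at 10 of 53 genes (18.9%; 9.44 to 32.0). They were led by eEF1gamma (rank 70, signal 695, 4 bp upstream), eIF6 (rank 80, 89 bp upstream) and eEF1alpha1 (rank 317, 19 bp upstream). Mitochondrial ribosomal protein genes differed from the cytosolic ones in count, with 1 of 73, namely mRpL41. A peak with starts on both strands lay at 13 of the 73 and at 29 of the 93 cytosolic genes. Among genes with no opposite-strand start nearby, 1 of 20 mitochondrial (5.0%) and 40 of 56 cytosolic genes (71.4%) had a member, beside 10.2% of all such genes. Splicing proteins had 1 of 29, B52 (rank 452; 3.45%, 95% exact interval 0.0873 to 17.8). None of the 48 proteasome genes (interval up to 7.40%) and none of the 33 aminoacyl-tRNA synthetase genes (up to 10.6%) had a member. The share of all protein-coding genes was 8.35%. Of the synthetase genes, 12 had no opposite-strand start nearby and 4 had a peak with starts on both strands. For the proteasome genes these counts were 24 and 0.

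Members at metal genes, the best known targets of MTF-1, lay on both sides of the member median signal of 153, from 107 at Fer3HCH to 953 at Fer2LCH. MtnC was the member among 6 metallothionein genes (16.7%; exact interval 0.421 to 64.1), of which 3 had no opposite-strand start nearby. The MtnC peak ranked 1139 (signal 195), 85 bp upstream, with 3 cores, and ranked 2190 in replicate 2 and 861 in replicate 4. Of 17 zinc transporter genes, 2 had members (11.8%; exact interval 1.46 to 36.4). ZnT35C (rank 1224, signal 187) had 1 core 7 bp from the summit and ranked 6467 in replicate 2 and 2228 in replicate 4. ZnT63C had its member at rank 2756, 73 bp downstream and with no core. Iron handling genes had members at 2 of 11 (18.2%; exact interval 2.28 to 51.8), Fer2LCH and Fer3HCH (rank 3432, 381 bp upstream). None of the 7 copper genes had one (exact interval up to 41.0%). The intervals of the metallothionein, zinc, iron and copper lists include the 8.35% of all protein-coding genes. The start of the copper gene Ctr1B lay 684 bp from the summit of the Coq2 peak of rank 5, outside the 500 bp limit. A further 3 metallothionein genes were at peaks with starts on both strands. The same held for 2 zinc transporter genes, 3 iron handling genes and 1 copper gene.

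Stress genes were represented by glutathione and redox genes with 5 of 19 (26.3%; 9.15 to 51.2). Heat shock and chaperone genes had 6 of 35 (17.1%; 6.56 to 33.6), beside 8.35% of all protein-coding genes. In the first list, Ggt-1 was followed by Keap1, the sensor of the antioxidant pathway. It had members at rank 648 (signal 260, 133 bp upstream, 2 overlapping cores) and at rank 1460 (462 bp downstream, 1 core), at separate starts. In the second, Hsp83 was followed by the small heat shock genes Hsp27 (rank 211, 131 bp upstream) and Hsp26 (rank 1722, 33 bp upstream), neither with a core. The starts of Hsp27 (3L 9384063) and Hsp26 (3L 9377427) lie on the same chromosome arm as that of the MTF-1 gene itself (3L 9430312). The extent of the genomic fragment in the transgene is not given in the sources used here. Whether that fragment bears on these peaks was not tested.

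Chromatin regulators held members at 4 of 13 Polycomb group genes (30.8%; 9.09 to 61.4) and 3 of 14 insulator and promoter factor genes (21.4%; 4.66 to 50.8). The first were led by ph-p, Su(z)2 (rank 919, 9 bp upstream) and ph-d (rank 1051, 18 bp upstream), the last 2 with a core. In the second, Trl, which encodes the GAGA factor, had a member at rank 623 (64 bp downstream). A member at rank 979 served starts of both CG42507 and Trl, and BEAF-32 had one at rank 2350 (69 bp upstream). Genes of replication, cyclins and their kinases, those that act in transcription included, had members at 5 of 33 (15.2%; 5.11 to 31.9). They were led by CycB3 (rank 1311), CycB (rank 1566) and stg (rank 1815). Segmentation genes had 3 of 19 (15.8%; 3.38 to 39.6), namely bcd (rank 607), cad (rank 2005) and hb (rank 3246). None of the 8 Hox genes had one (interval up to 36.9%). The intervals of these lists, other than that of the Polycomb group, include the 8.35% of all protein-coding genes.

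In the remaining lists the share was near or under 8.35%, and 179 chemoreceptor genes held no member. Vacuolar ATPase subunits had 3 of 33 (Vha13 at rank 2175, Vha16-1 at 2352 and Vha100-2 at 2604), Rab GTPases 2 of 33 (Rab5 at rank 659 and Rab1 at 2082) and actin and tubulin 2 of 17 (alphaTub84B at rank 829 and betaTub56D at 2886). Autophagy had 1 of 20 (Atg1 at rank 2401) and cuticle proteins 1 of 110 (Cpr65Av at rank 2336).

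Genes with a member promoter were longer than the other one-directional genes. The median span was 5056.5 bp in 834 member genes and 1932 bp in 8620 others (permutation of the median, adjusted p = 3e-05 over 3 properties, from a raw p of 1e-05, the smallest these permutations can give). Both groups had a median of 1 start, while the mean number was 1.71 in member genes and 1.29 in others. Member genes were picked by a summit near the outermost start, whereas the others had no thresholded peak within 1000 bp of any start. A gene with more starts was thus more easily left out of the others. The part of this in the differences of span and starts was not tested. Promoter GC content was 40.7% in members and 39.6% in others (difference of 1.09 percentage points, permutation, adjusted p = 0.000225). Against other promoters with a candidate region the difference was -0.96 points (40.7% and 41.6%, permutation, adjusted p = 0.00358), so its direction depended on which promoters stood for the rest. The span difference held in that comparison (5056.5 and 3110 bp, permutation, adjusted p = 3e-05).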

How the data were processed

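The ChIP-seq peak lists are on dm6. Each replicate and the pooled alignments gave a list of candidate regions per the deposited read-me, and the thresholded list was derived from these by the irreproducible discovery rate. The signal of each region is the authors' deposited value, with an unstated scale, and the lists also carry deposited −log10 q-values (0.162 to 3.80 over the 4 lists), which were not used. The aligner, peak caller, threshold and read numbers were not given in the sources used here, so depth is unknown and intervals cover counting of regions or genes only. The read-me names a further shared source file for each list, taken to be the control and not analysed here.

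Starts came from Ensembl gene models (BDGP6.54) and bases from the RefSeq genome of the same assembly; 0 regions lay beyond a chromosome end. The 13945 protein-coding genes on 2L, 2R, 3L, 3R, 4 and X had 19253 starts. Members and lists were chosen with earlier results of these data known. Genes were put in lists by symbol, and 3 basic helix-loop-helix genes and 3 Rab regulators were taken out of the iron and Rab lists after their counts were seen. Background regions were those of the pooled list with signal below its median and no overlap (1 bp) with a thresholded peak. Fisher's exact tests, 100000-resample permutation tests and exact Clopper-Pearson intervals used scipy; motif and permutation code was tested on simulated data. Named genes were the 20 members of highest signal, the 10 with a core, the 5 upstream and 5 downstream of highest signal, the 3 strongest of each list and the peaks at the 500 bp limit. Genes outside this rule (MTF-1, RpL10Ab, RpL27, RpL30, RpL27A and the genes with 4 members) were chosen after their values were seen. Nothing says that the replicates came from separate crosses.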

Additional observations from a re-analysis of the deposited data

How the results depend on the processing

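No paired analysis was possible because both replicates belong to 1 group. The member share was 32.4% with a limit of 250 bp, 40.0% with 1000 bp and 25.6% with outermost starts, and lay between 32.3% and 36.4% with 1 replicate's list. Members had lower signal than peaks with starts on both strands at 250 bp (-0.18, permutation p = 0.00184) and 1000 bp (-0.086, p = 0.0267). Against peaks with no start the difference was -0.027 at 250 bp (permutation p = 0.395), and with 1 replicate it ran from 0.025 to 0.11, passing without replicate 4 (p = 2e-05). With and without a core it was 0.061 for outermost starts, 0.13 in peaks at or above the median signal and, with 1 replicate, -0.034 to 0.075; none passed. The share in both replicates differed by -2.29 points for outermost starts (Fisher's exact p = 0.00593), 1.65 with an overlap of 0.5 of both regions and 1.82 among the strongest regions. The core excess lay between 1.67 and 4.03 points with 1 replicate, the promoter GC difference between 0.48 and 2.58, losing its call without replicate 2 (permutation, adjusted p = 0.167), and against candidate-region promoters it was -0.96. There, 4 motifs passed in place of 10. Mean starts differed by 0.41 (permutation, adjusted p = 1.5e-05). 

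Motifs that did not pass turned direction as follows, in percentage points: AP-1 -0.19 at 1000 bp, between -1.17 and 0.039 with 1 replicate's list and -0.045 in the 100 bp window; GATA 0.83 in the 500 bp window and 0.020 against candidate-region promoters; Su(Hw) -0.058, -0.23, -0.15, -0.14, -0.10 and -0.22 over 6 alternatives; TATAAA 0.96 in the 500 bp window and 1.52 against candidate-region promoters; antioxidant element -1.26 at or above the median signal and -0.38 against candidate-region promoters; heat shock element 0.30 in the 500 bp window; CTTTTC -0.46 without ribosomal protein genes. The cause was not tested. The upstream excess kept its direction and call in every alternative run, between 11.7 and 23.2 points.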

Other observations

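The MRE core was more often followed by G in members than in background regions. The pattern was noticed after the sequences had been seen and is given without a test, and the intervals below overlap. The core was followed by G in 59 of 173 members with a core (34.1%; 27.1 to 41.7) and in 49 of 194 background regions (25.3%; 19.3 to 32.0). It was followed by GG in 17 members (9.83%; 5.83 to 15.3) and in 6 background regions (3.09%; 1.14 to 6.61). Of the 40 members among the 100 strongest peaks, 8 had a core, which G followed in 6 and GG in 4. Sequences printed above, at Coq2, Ggt-1, Hsp83, Fer2LCH and Mlp84B, are among these 8, so the count gives no separate check of the pattern.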
